A study of Mus musculus with 36 samples.

Results

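Spin4 is an X-linked gene of the spindlin family. It is 1 of 252 genes for which the fraction of chromatin-associated RNA from the inactive X chromosome (Xi) was deposited across 36 mouse libraries from 8 lines. The fraction is Xi/(Xi+Xa), where Xi stands for reads of the 129S allele and Xa for reads of the Cast allele of the active X. A value near 0.5 means that both alleles were read about equally, and a value of 0 means that no read of the 129S allele was listed. Spin4 was in both deposited tables, one of 249 genes and one of 242 genes that was made with the K518E libraries, and 239 genes were shared. It had come up in earlier results of these data through its Xi fraction at day 7 in the Y353C and E147A lines, where it was above 0, against the Halo-SMCHD1 line, where it was at 0. These values chose the gene, so they are described below without a test.

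All cells were XX mouse embryonic stem cells (mESCs) of a 129S by Cast cross with a doxycycline (dox) inducible promoter in place of the native promoter of the 129S Xist allele, so dox makes the 129S X the Xi in every cell that responds. The parental line is called iXist-ChrX, and SMCHD1 KO lacks SMCHD1 on this background. In Halo-SMCHD1 the native protein carries a Halo tag at its N terminus, and an eGFP-CIZ1 transgene sits in the Rosa26 locus to mark the Xi. The remaining lines were made in Halo-SMCHD1 cells, so a difference between any of them and iXist-ChrX cannot be told apart from the tag and the transgene. LRIF1 KO lacks LRIF1, and E147A, Y353C, G137E and K518E carry single residue substitutions in the GHKL ATPase part of SMCHD1. Each derived line was 1 clone, so a difference between lines cannot be told apart from a difference between clones. For Halo-SMCHD1, LRIF1 KO and the 4 substitution lines there was 1 library of uninduced mESCs and 1 library after 24 h with dox at 1 µg/ml. Monolayer differentiation under dox gave 3 libraries at day 7 for Halo-SMCHD1 and G137E and 2 for every other line, and 2 libraries at day 5 for Halo-SMCHD1, G137E and K518E. Per the study's methods the replicates were independent repeats with a single clone. The p values therefore measure the spread between repeats of single clones, pooled over the lines fitted together, and not the spread between clones.

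X inactivation begins when Xist RNA coats the chromosome it is made from and repressive complexes follow. SMCHD1 accumulates on the Xi as cells differentiate and helps to keep genes silent, and CpG islands of many Xi genes need it to become methylated. Its GHKL ATPase domain governs how it binds chromatin, and LRIF1 brings SMCHD1 to chromatin that carries methylated histone H3 lysine 9. Spindlin proteins hold Tudor-like repeats that read methylated lysines of histone H3. As a gene is silenced on the Xi, its Xi fraction goes from near 0.5 towards 0.

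In the tables Spin4 spanned chrX:95022506-95026682 (mm10, minus strand). In the GENCODE annotation of the same build it is a single exon gene, with coding sequence at chrX:95025448-95026194, a 5′ UTR of 488 bases and a 3′ UTR of 2938 bases that includes the stop codon. The coding sequence takes up only 747 bases, so most of the transcribed length is 3′ UTR. No intron adds to the sequence over which allele-specific reads could be counted. The 250 bases before the RefSeq start of Spin4 (GRCm38.p6, chrX:95026683-95026932, minus strand) are shown because CpG-rich starts are where methylation of silent Xi genes is laid down, with every CpG dinucleotide (letters CG, which read the same on both strands) in capitals.

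Spin4 upstream sequence: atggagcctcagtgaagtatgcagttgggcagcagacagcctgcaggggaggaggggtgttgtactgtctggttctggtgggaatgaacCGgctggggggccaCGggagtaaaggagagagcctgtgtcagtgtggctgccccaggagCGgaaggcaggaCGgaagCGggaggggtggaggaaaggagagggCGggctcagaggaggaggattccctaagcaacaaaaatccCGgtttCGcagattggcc

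This stretch holds 8 CpG and has a GC content of 60.8%. Among the 201 of 249 genes with a RefSeq start of the same length, the median was 14 CpG at the start with the most, 42 genes had fewer than Spin4 and 11 had the same number, which put Spin4 among the 26.4% with at most 8. A CpG was present in 96.5% of the 259 starts of these genes. For the 13 of 19 genes near Spin4 with a start in the table, the median was 18 CpG. Methylation was not measured here, so these counts describe the sequence alone.

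Before the results, several features of the libraries have to be given. The tables hold X-linked fractions only, so neither the cell type nor the autosomal genes Smchd1 and Lrif1 could be checked against the labels. Xist itself came almost wholly from the 129S allele, with an Xi fraction of 0.998 to 0.999 in the 24 differentiated libraries and 0.881 to 0.995 in the 6 uninduced ones. The deposited values carry no read counts. The depth behind a fraction is therefore unknown, and a value of 0 is described only as listed at 0. A low value above 0 may likewise rest on very few reads of the 129S allele, which could not be checked. In the differentiated libraries 3.72% to 24.5% of genes were at 0. The highest share was in Halo-SMCHD1 day 7 replicate 1, where 61 of 249 genes were at 0 and the median over genes was 0.0198, against medians of 0.0372 and 0.0426 in the other Halo-SMCHD1 day 7 libraries. A second library that stood apart was the E147A day 7 library numbered 3, whose median of 0.101 was the highest of day 7, against 0.0526 in the other E147A library. Values without each of them are given where a result rests on them.

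Before induction, both alleles of Spin4 were read in each line. Its Xi fraction was 0.595 in Halo-SMCHD1, 0.554 in LRIF1 KO, 0.514 in K518E, 0.487 in E147A, 0.482 in Y353C and 0.466 in G137E. The median over genes lay between 0.514 and 0.524 in the same libraries, so Spin4 was above it in Halo-SMCHD1 and LRIF1 KO and below it in the 4 substitution lines. After 24 h with dox the Xi fraction of Spin4 was 0.111 in Halo-SMCHD1, 0.129 in E147A, 0.158 in G137E, 0.206 in Y353C, 0.2 in LRIF1 KO and 0.0952 in K518E. All 6 lines were thus lower after dox than before it, and none of the 24 h values reached the lowest uninduced one. With 1 library per line and stage, differences between lines at these stages have no replicate check.

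Spin4 was among the genes with a low Xi fraction at 24 h. The medians over genes were 0.212 to 0.277, and Spin4 lay at percentiles 12.6 to 35.5 of the genes of its library, with ties counted at their middle. Relative to the uninduced value, Spin4 kept 18.5% of its Xi fraction in K518E, 18.7% in Halo-SMCHD1, 26.5% in E147A, 33.9% in G137E, 36.1% in LRIF1 KO and 42.7% in Y353C. The median over genes was 42% to 55.1% in these lines and lay above Spin4 in each of them. The 19 genes that start within 2 Mb of Spin4 kept a median of 26% to 35.5%. Spin4 was therefore below its surroundings in Halo-SMCHD1, E147A, G137E and K518E, and above them in LRIF1 KO and Y353C. The Y353C library had the largest excess, with 15 of 19 neighbours at a lower Xi fraction than Spin4, against 3 of 19 in Halo-SMCHD1.

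**Figure D1:**
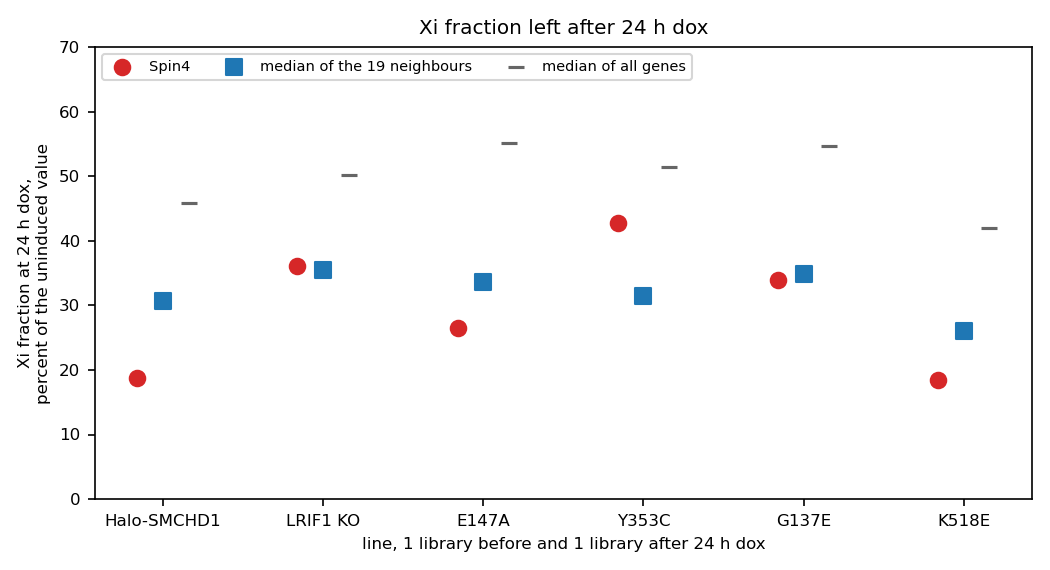
The vertical axis gives the Xi fraction after 24 h dox as a percent of the uninduced value, for 6 lines on the horizontal axis with 1 library at each stage and no error bars. Spin4 (circles) ran from 18.5% to 42.7% and lay under the median of all genes (dashes) in each line, and it lay above the median of its 19 neighbours (squares) in LRIF1 KO and Y353C.

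At day 5 of differentiation the 3 lines differed in their listed values. Spin4 was at 0.0556 and 0.05 in the Halo-SMCHD1 libraries, at 0 in both G137E libraries, and at 0 and 0.0417 in the K518E libraries. Both Halo-SMCHD1 values lay above all 4 values of the mutant lines, and the replicates differed more from each other in K518E than in Halo-SMCHD1. The medians over genes were 0.0708 and 0.0607 in Halo-SMCHD1, 0.0584 and 0.0769 in G137E, and 0.0371 and 0.0432 in K518E. One G137E library median thus lay below and the other above both Halo-SMCHD1 medians, and Spin4 was at 0 in both G137E libraries.

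At day 7, Spin4 was listed at 0 in 11 of 18 libraries. It was at 0 in all 3 Halo-SMCHD1 libraries, all 3 G137E libraries, both LRIF1 KO libraries and both SMCHD1 KO libraries. In iXist-ChrX it was at 0.0164 in one library and at 0 in the other. The Xi fraction was above 0 in every library of the remaining 3 lines. It was 0.0625 and 0.0714 in E147A, 0.0227 and 0.0333 in Y353C, and 0.0333 and 0.012 in K518E. The order of the means ran from E147A (0.067) through Y353C (0.028), K518E (0.0227) and iXist-ChrX (0.0082) to the 4 lines at 0. Only the first step of this order separated the libraries, since both E147A values lay above both Y353C values. Y353C and K518E shared a range, K518E overlapped iXist-ChrX, and iXist-ChrX overlapped the lines at 0.

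**Figure D2:**
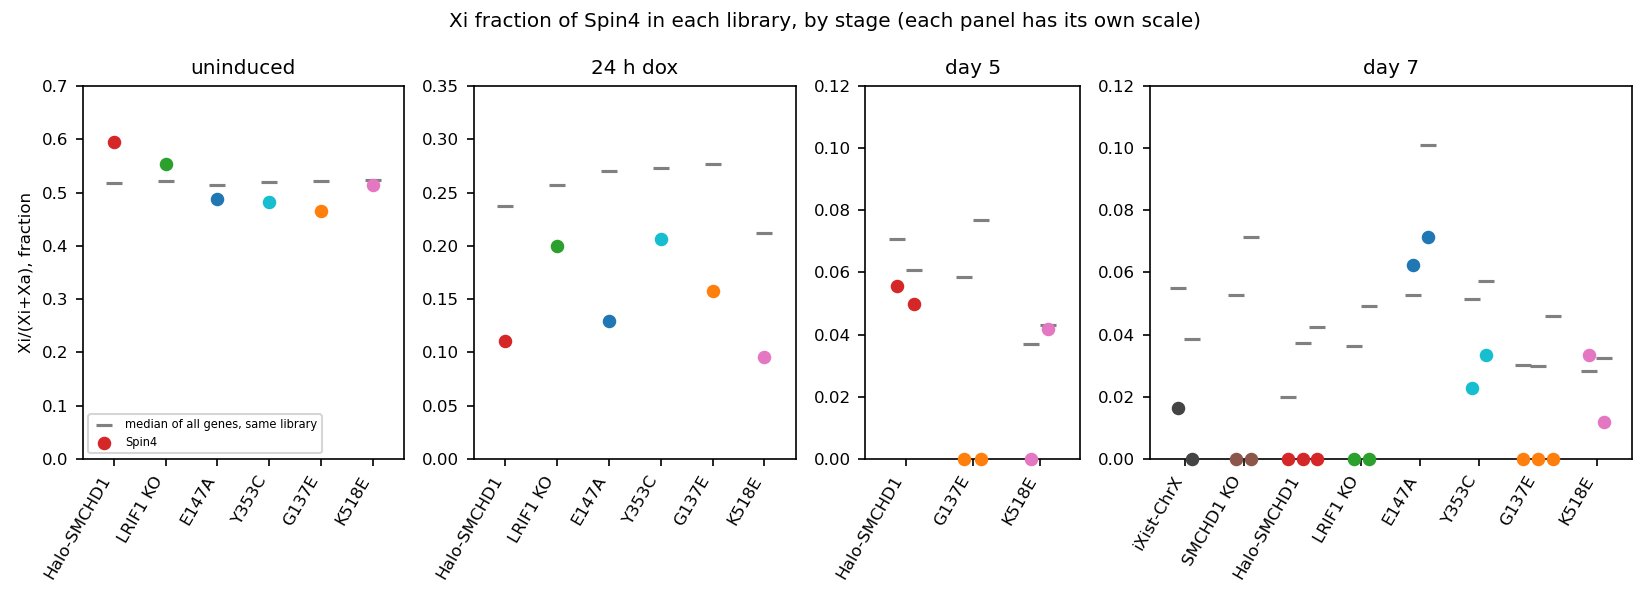
Each coloured point is the Xi fraction of Spin4 in 1 library (vertical axis, fraction), grouped by line on the horizontal axis and by stage in the 4 panels, each with its own scale, and the grey dash is the median over all genes of the same library. At day 7 the E147A points sit at 0.0625 and 0.0714, while the Halo-SMCHD1, SMCHD1 KO, LRIF1 KO and G137E points sit at 0.

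The position of Spin4 among all genes of a library shows the same values without their overall level. At day 7 it lay at percentiles 56.2 and 35.1 in E147A, 21.9 and 32.5 in Y353C, and 56 and 17.1 in K518E. It lay at or below percentile 14.7 in the other day 7 libraries. A value of 0 was not in itself rare there, since 17 to 27 genes were at 0 in the SMCHD1 KO libraries and 24 to 25 in the LRIF1 KO libraries. Of 249 genes, 5 (2.01%) were at 0 in all 3 Halo-SMCHD1 day 7 libraries, namely Spin4, Prickle3, Frmd7, Prrg3 and Tmem28. Frmd7 and Spin4 were the 2 genes (0.803%) also at 0 in all SMCHD1 KO and LRIF1 KO day 7 libraries. Spin4 alone of the 5 was above 0 in all E147A and Y353C libraries, which is how it was chosen.

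The differences from Halo-SMCHD1 at day 7 share the 3 Halo-SMCHD1 libraries and are given side by side. Spin4 differed by 0.067 in E147A, by 0.028 in Y353C, by 0.0227 in K518E and by 0 in LRIF1 KO and G137E. The median difference over all genes was 0.0368 in E147A, 0.0181 in Y353C, -0.00169 in K518E, 0.00759 in LRIF1 KO and 0.00142 in G137E. Spin4 lay at percentiles 76.9 and 65.7 of the differences in E147A and Y353C. The size of the E147A median rests on library 3, since the library medians were 0.0526 and 0.101 in E147A against 0.0198 to 0.0426 in Halo-SMCHD1, and 0.0513 and 0.0571 in Y353C. In K518E, where the median was just under 0, Spin4 lay at percentile 89. Every E147A, Y353C and K518E library lay above every Halo-SMCHD1 library for Spin4. A separation of the libraries in either direction was seen for 46.6%, 42.2% and 17.8% of all genes in those comparisons.

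On the log2 odds scale, log2((r + 0.01)/(1 - r + 0.01)) with r the fraction, Spin4 was 3.04 higher in E147A than in Halo-SMCHD1, 1.95 higher in Y353C and 1.66 higher in K518E. No SE is given, since each comparison holds libraries by which Spin4 had come up. These sizes rest on the added 0.01, because one side is at 0. Subtracting the library medians, which themselves differed by 1.06 and 0.64 on this scale in E147A and Y353C, left 1.99 and 1.31. Without Halo-SMCHD1 replicate 1 the differences of Spin4 were the same, since each Halo-SMCHD1 library was at 0, and leaving out either E147A library gave 2.95 and 3.13. Against iXist-ChrX, Spin4 was 0.0588 higher in E147A and 0.0198 higher in Y353C, while the medians over all genes were 0.0245 and 0.00617. These differences reuse the E147A and Y353C values by which Spin4 had come up, so they are no separate check. The libraries did not overlap in either case, as for 39.4% and 40.6% of genes.

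Comparisons whose difference is taken between other libraries than those by which Spin4 had come up were tested with limma across all genes of a table, with Benjamini-Hochberg adjustment, and none of the 8 passed an adjusted p of 0.05 for Spin4. Their SEs still draw on all differentiated libraries of a table, those by which Spin4 had come up included. With the compared libraries alone none of the 8 passed either, with limma adjusted p from 0.0696 to 1. The test of day 7 against day 5 in G137E could not pass, since Spin4 was at 0 in every library compared. SMCHD1 KO and LRIF1 KO each differed from iXist-ChrX by -0.0082 at day 7, which is -0.71 on the log2 odds scale (SE 0.341, limma adjusted p = 0.384 and 0.769, or 0.737 and 0.78 with the compared libraries alone). The value was the same in both comparisons, which share the iXist-ChrX libraries, because Spin4 was at 0 in both mutant lines. The median difference over genes was 0.0107 in SMCHD1 KO and -0.00225 in LRIF1 KO, so Spin4 lay at percentiles 16.7 and 40.8 of the differences. Each comparison rests on the 1 iXist-ChrX library above 0. Without the iXist-ChrX library at 0 (replicate 2), the difference was -1.42 with a limma adjusted p of 0.0178 in both comparisons, and without the other one it was 0. In the SMCHD1 KO comparison 0.803% of genes passed the test in either direction, and in the LRIF1 KO comparison 0%, with 14 genes at an unadjusted p under 0.05.

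At day 5, G137E differed from Halo-SMCHD1 by -0.0528 for Spin4 and by a median of 0.00158 over genes. This was -2.73 on the log2 odds scale (SE 0.615) and percentile 1.45 of all differences. Both G137E libraries lay below both Halo-SMCHD1 libraries, and libraries were separated in either direction for 24% of genes. The limma test gave an adjusted p of 0.321. Of the 242 genes 0% passed, and 7 had an unadjusted p under 0.05. This call depended on the table. In the table without K518E the same libraries gave a limma adjusted p of 0.000581. The residual SD of Spin4 was 0.32 there, from libraries that include those by which it had come up, against 0.658 in the table with K518E. A group with Spin4 at 0 in every library adds no spread to this SD. Of the groups fitted, 5 of 9 were of this kind in the table without K518E and 3 of 6 in the other. In a fit of the compared libraries alone the adjusted p was 0.0696.

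K518E differed from Halo-SMCHD1 by -0.0319 at day 5, which is -1.51 on the log2 odds scale (SE 0.615, limma adjusted p = 0.343), against a median over genes of -0.0178. With the library medians subtracted it was -0.90 (limma adjusted p = 0.842). The K518E libraries lay below the Halo-SMCHD1 libraries for Spin4, libraries were separated in either direction for 66.5% of genes, and 0.413% of genes passed the test. The value rests on which K518E library is used. Without K518E replicate 2, the library above 0, the difference was -2.73 with a limma adjusted p of 0.00477, and without K518E replicate 1, the library at 0, it was -0.30 with a limma adjusted p of 0.756. The direct comparison of both substitutions gave 0.0208 more in K518E than in G137E at day 5 (log2 odds 1.22, SE 0.615, limma adjusted p = 0.344) and 0.0227 more at day 7 (1.66, SE 0.562, limma adjusted p = 0.492). The medians over genes pointed the other way, at -0.0214 and -0.00277, and Spin4 lay at percentiles 96.1 and 90.7 of the differences. Of all genes 0.413% passed at day 5 and 0% at day 7, where 17 had an unadjusted p under 0.05. The libraries overlapped for Spin4 at day 5 and were separated at day 7, as they were for 23.6% of genes. Without K518E replicate 1 the day 5 difference was 2.43 with a limma adjusted p of 0.0113, and without K518E replicate 2 it was 0.

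The step from day 5 to day 7 could be followed in 3 lines. In Halo-SMCHD1, Spin4 was at 0.0556 and 0.05 and then at 0 in 3 libraries, a difference of -0.0528 against a median over genes of -0.0243. In G137E it was at 0 in every library of both days, so the limma test could not show a difference (adjusted p = 1). The median difference over genes was -0.0249 there. In K518E the difference was 0.00186, well within the spread of the 2 libraries of each day (log2 odds 0.45, SE 0.615, limma adjusted p = 0.931), and 0.413% of genes passed. Its sign turned to -0.77 without K518E day 5 replicate 1 and to -0.06 without K518E day 7 replicate 1. The difference in this step between K518E and G137E was 0.45 (SE 0.833, limma adjusted p = 0.939), which repeats the K518E value because every G137E library was at 0.

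The genes around Spin4 show whether its values are those of its region. Each table held 19 genes whose start lies within 2 Mb of that of Spin4, and 18 of them were in both tables. Distances are between the lower chromosome coordinates of the genes. They run from Pola1, a DNA polymerase subunit, 1718 kb to the left, to Heph, a copper-dependent oxidase of iron transport, 1433 kb to the right. The nearest measured genes outside the window were Il1rapl1, 8275 kb to the left, and Eda2r, 2311 kb to the right. Their day 7 means in Halo-SMCHD1 were 0.128 and 0.0259, against 0.0198 for Pola1 and 0.00701 for Heph.

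Most neighbours were near-silent at day 7, and 2 genes stood far above the rest. Zfx, a zinc finger transcription factor 948 kb to the left, had a day 7 median of 0.304 over 16 libraries, and Eif2s3x, a subunit of translation initiation factor 2 that escapes X inactivation in mouse, 834 kb to the left, had 0.241. Apoo, a mitochondrial protein gene, followed with 0.115. At the low end, Spin4, Zxdb and Zc4h2 had a day 7 median of 0, with 11, 11 and 10 of 16 libraries at 0. Zxdb and Zxda are near-identical copies, so with unique alignments their values rest on the reads that tell them apart and are uncertain. Zxdb, a zinc finger gene 298 kb to the left, was also above 0 in both Y353C libraries (0.0588 and 0.12), but it was at 0 in both E147A libraries. Zc4h2, which encodes a zinc finger protein of neural development, was at 0 and 0.0606 in E147A and at 0 in both Y353C libraries.

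**Figure D3:**
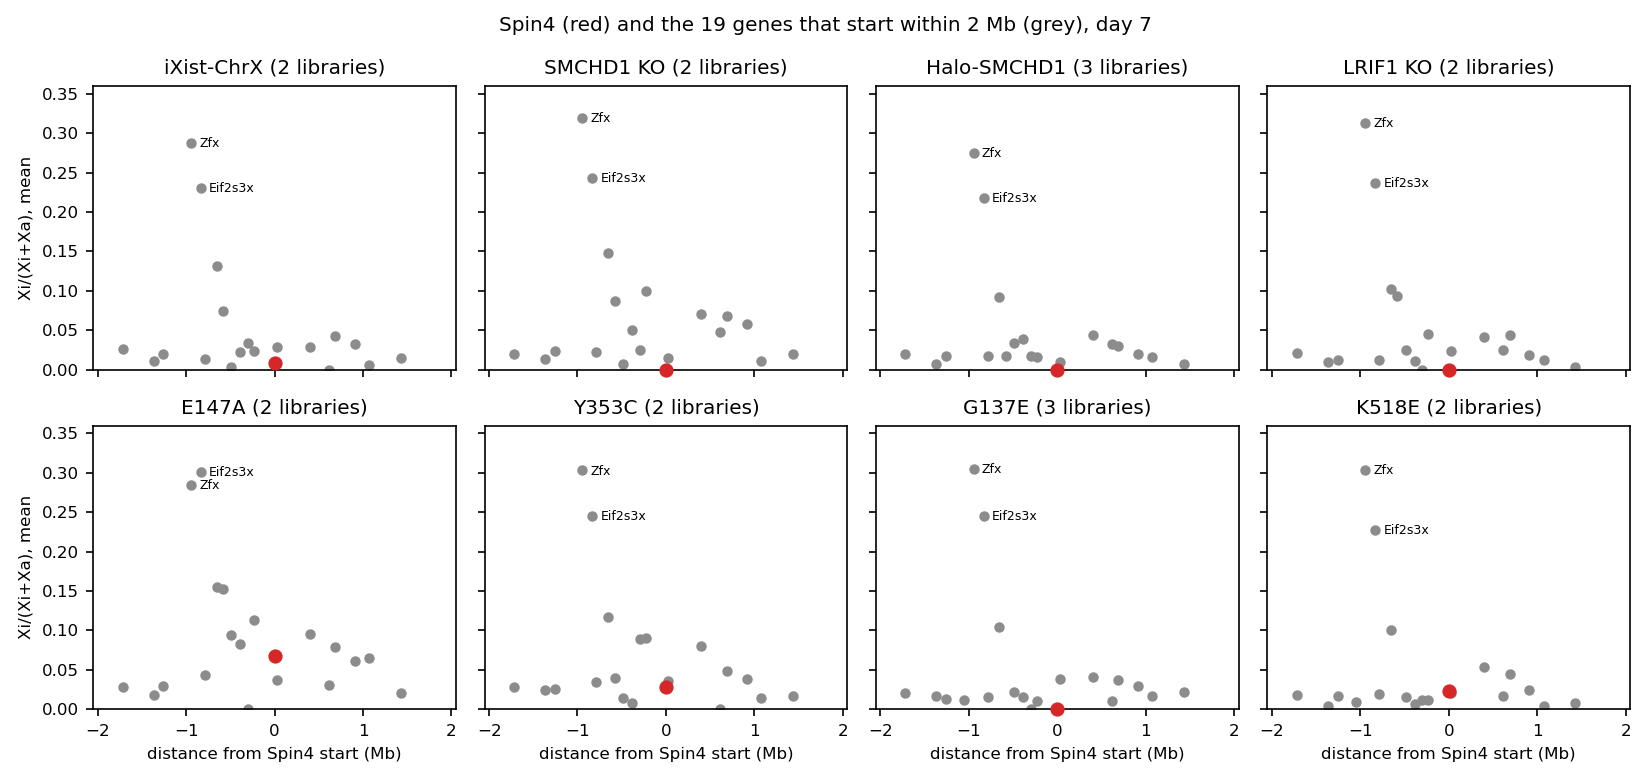
Each panel shows 1 line at day 7, with the mean Xi fraction over its libraries (vertical axis, fraction) against the distance of the gene start from that of Spin4 in Mb (horizontal axis). Grey points are the 19 neighbours and the red point is Spin4, which is at 0 in SMCHD1 KO, Halo-SMCHD1, LRIF1 KO and G137E and at 0.067 in E147A, while Zfx and Eif2s3x are above 0.2 in each panel.

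In E147A against Halo-SMCHD1 at day 7, 17 of 19 neighbours were higher and 2 lower, beside 219 of 249 higher over all genes. The median difference of the neighbours was 0.0416 against 0.0368 over all genes. The limma test with Benjamini-Hochberg adjustment called 2 of them higher, beside 16.1% of all genes. Las1l, which acts in the making of ribosomes, was at 0.0181, 0.0172 and 0.0233 in Halo-SMCHD1 and at 0.0647 and 0.0576 in E147A. Both E147A libraries lay above the 3 Halo-SMCHD1 libraries, with a difference of 1.33 on the log2 odds scale (SE 0.274, limma adjusted p = 0.0096). Eif2s3x was at 0.188, 0.227 and 0.24 in Halo-SMCHD1 and at 0.3 and 0.302 in E147A (0.61, SE 0.193, limma adjusted p = 0.0465). Neither call held without E147A library 3, with the compared libraries alone or with the library medians subtracted, where the sign for Eif2s3x turned to -0.44. The Eif2s3x call was also lost without E147A replicate 1 or Halo-SMCHD1 replicate 1 or 2, with 0.001 added and among genes with an uninduced fraction of 0.25 to 0.75. Without E147A library 3 the median difference of the neighbours was 0.00376. Spin4 was 0.0625 in the other E147A library, where 13 of 19 neighbours were lower than Spin4, and 0.0714 in library 3, where 8 were lower and 11 higher.

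In Y353C against Halo-SMCHD1, 15 neighbours were higher and 4 lower, beside 201 of 249 higher over all genes. The median difference was 0.0175 against 0.0181 over all genes. None of the neighbours passed the limma test, beside 3.61% of all genes. At an unadjusted p under 0.05 there were 2 of 19, beside 19.7% of all genes. The largest differences among them were 0.0742 for Zxda, 0.0727 for Zxdb and 0.037 for Amer1, a regulator of Wnt signalling. In LRIF1 KO 9 were higher and 10 lower, beside 167 of 249 higher over all genes. The neighbours' median was -0.00164 against 0.00759 over all genes. Its sign turned without LRIF1 KO replicate 1 (0.00559) or Halo-SMCHD1 replicate 2 (0.0015) or 3 (0.00226). In SMCHD1 KO against iXist-ChrX 16 were higher and 3 lower, beside 172 of 249 higher over all genes. The neighbours' median was 0.0115 against 0.0107 over all genes, and it was 0 without SMCHD1 KO replicate 2. None passed the limma test, beside 0.803% of all genes, and 1 had an unadjusted p under 0.05, beside 13.7% of all genes. Among the lower ones were Zxdb (-0.00833) and Pola1 (-0.00638), beside -0.0082 for Spin4.

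At day 5, neighbours of Spin4 were split in G137E, with 10 higher and 9 lower than in Halo-SMCHD1 and differences from -0.0328 to 0.031. Spin4 lay outside this range at -0.0528. In K518E 15 of 19 were lower, beside 197 of 242 over all genes. For 10 of the 15 the libraries did not overlap, beside 60.7% of all genes with no overlap in that direction. At day 7, 16 of 19 neighbours had a lower mean than at day 5 in Halo-SMCHD1 and 16 of 19 in G137E. Over all genes 209 of 242 and 206 of 242 were lower. The limma test called 2 of the neighbours lower in each line, beside 9.09% and 7.44% of all genes. Msn, which encodes the membrane linker moesin, was called in both lines. It was at 0.0881 and 0.0554 in Halo-SMCHD1 at day 5 and at 0.00221, 0.0255 and 0.0217 at day 7 (log2 odds -1.83, SE 0.487, limma adjusted p = 0.0428). In G137E it was at 0.0548 and 0.101 and then at 0.00798, 0.0161 and 0.0242 (-1.84, SE 0.487, limma adjusted p = 0.0493). Las1l in Halo-SMCHD1 (-1.15, SE 0.25, limma adjusted p = 0.0282) and Pdk3, a kinase of the pyruvate dehydrogenase complex, in G137E (-0.94, SE 0.248, limma adjusted p = 0.0493) were the others. These 4 calls were lost when either day 5 library or day 7 replicate 1 of the line was left out. They were also lost with the library medians subtracted, with 0.001 added, or when the fit held the compared libraries alone. All but Las1l were lost in the other table. Both G137E calls were also lost without day 7 replicate 2 and with robust and trend moderation. Pdk3 was also lost without day 7 replicate 3 and among genes with an uninduced fraction of 0.25 to 0.75. In Halo-SMCHD1 both Spin4 and most of its neighbours thus had lower means at day 7, as did most genes measured. In G137E most neighbours and most genes did, while Spin4 was at 0 from day 5.

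**Figure D4:**
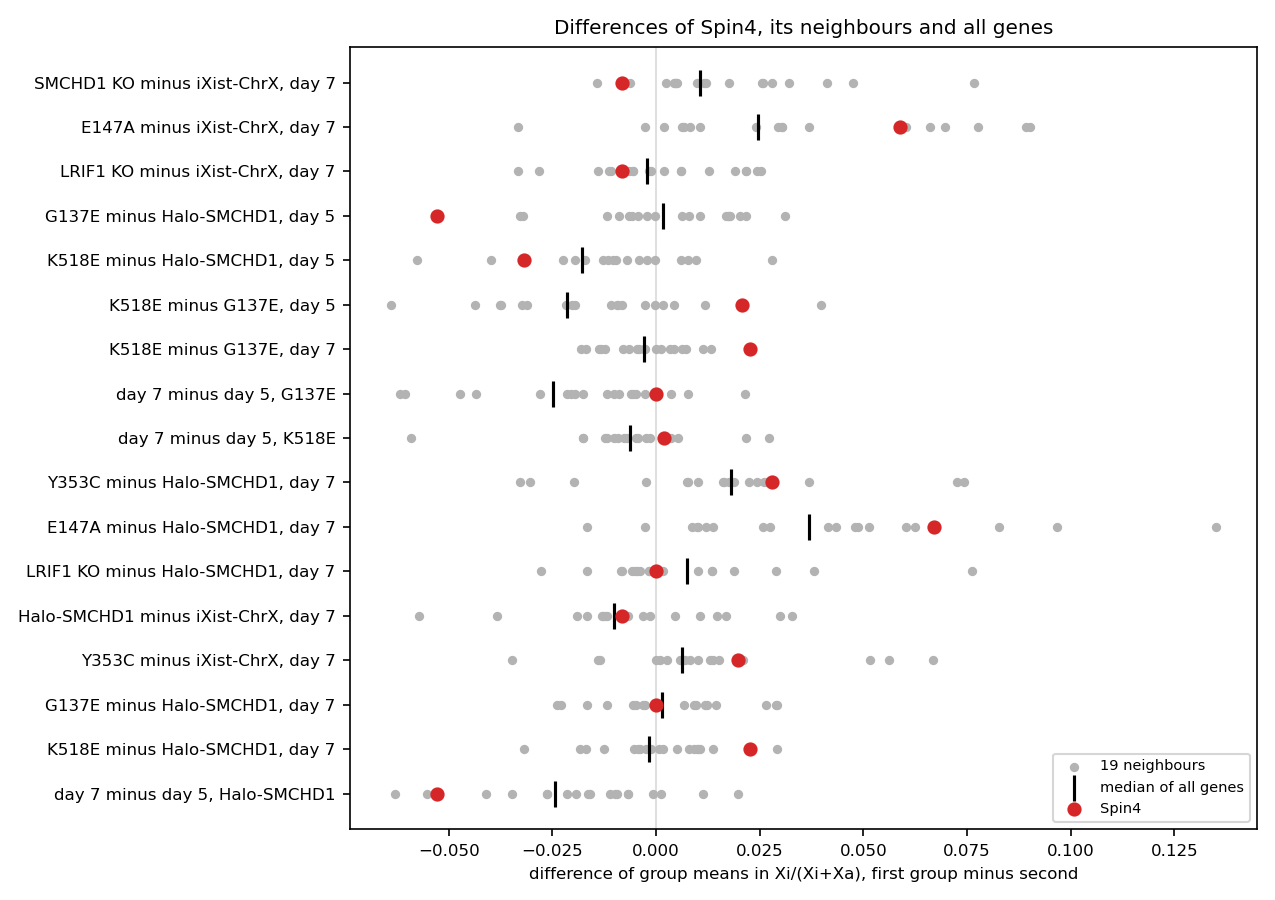
Each row is 1 comparison and the horizontal axis is the difference of group means in Xi/(Xi+Xa), first group minus second. Grey points are the 19 neighbours, the black bar is the median over all genes and the red point is Spin4, which lies at 0.067 for E147A minus Halo-SMCHD1 at day 7 and at -0.0528, outside its neighbours, for G137E minus Halo-SMCHD1 at day 5.

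Other X-linked genes of chromatin regulation give a second reference, since Spin4 itself reads histone marks. Of a list of 29 such genes, 14 were measured. No Spin2 gene, the other X-linked spindlin branch, was among the measured genes. In Halo-SMCHD1 at day 7 the 14 genes ranged from 0.0151 ± 0.0132 (SD, n = 3) for Phf6, a chromatin-binding PHD finger gene, to 0.253 ± 0.0195 (SD, n = 3) for Kdm6a, the H3K27 demethylase that escapes X inactivation. In E147A all 14 had a higher mean than in Halo-SMCHD1, beside 219 of 249 over all genes. The median difference of the list was 0.041 against 0.0368 over all genes. The libraries did not overlap for 7 of the 14, beside 46.2% of all genes in that direction. For Jade3, Stag2, Bcorl1 and Suv39h1 the E147A SDs were 0.0349, 0.0317, 0.0475 and 0.0629 (n = 2). They exceeded the differences (0.0138, 0.0153, 0.0265 and 0.0152) by enough that the lower E147A value of each lay under the Halo-SMCHD1 mean. A higher level in all 14 therefore did not hold in each E147A library, and the list was not counted without library 3. Of the 14 genes, 2 passed the limma test, beside 16.1% of all genes. Ogt, which adds O-GlcNAc to proteins, was at 0.106, 0.111 and 0.128 in Halo-SMCHD1 and at 0.221 and 0.203 in E147A (log2 odds 1.00, SE 0.242, limma adjusted p = 0.0168). Taf1, the largest subunit of transcription factor TFIID, was at 0.0869, 0.0936 and 0.116 and at 0.161 and 0.178 (0.85, SE 0.202, limma adjusted p = 0.0164). Neither call held without Halo-SMCHD1 replicate 1, without E147A library 3, with the compared libraries alone or with the library medians subtracted, where the values turned to -0.06 and -0.21.

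In Y353C 11 of the 14 chromatin genes were higher and 3 lower than in Halo-SMCHD1, beside 201 of 249 higher over all genes. The median difference of the 14 was 0.0177 against 0.0181 over all genes. None passed the limma test, beside 3.61% of all genes, and 4 had an unadjusted p under 0.05, beside 19.7% of all genes. In SMCHD1 KO against iXist-ChrX 11 were higher and 3 lower, beside 172 of 249 higher over all genes. The median of the 14 was 0.0227 against 0.0107 over all genes. None of the 14 passed the limma test there, beside 0.803% of all genes, and 3 had an unadjusted p under 0.05, beside 13.7% of all genes. In K518E at day 5 all 14 were lower than in Halo-SMCHD1, with a median of -0.026 against -0.0178 over all genes, of which 197 of 242 were lower. For 11 of the 14 the libraries did not overlap, beside 60.7% of all genes in that direction. In G137E at day 5 the list was split into 6 higher and 8 lower, with differences of -0.0239 to 0.0147, and Spin4 at -0.0528 lay outside that range. From day 5 to day 7 of G137E, 3 of 14 were called lower by limma, beside 7.44% of all genes, namely the Polycomb corepressor genes Bcor and Bcorl1 and the cohesin subunit gene Stag2. Those calls were lost when either day 5 library or day 7 replicate 1 or 2 was left out, with the library medians subtracted, with 0.001 added, with the compared libraries alone and in the other table. Bcorl1 was also called lower between the days in Halo-SMCHD1 (log2 odds -1.43, SE 0.309, limma adjusted p = 0.0282), beside 9.09% of all genes. It was lost there without either day 5 library or day 7 replicate 1, and under the same other settings.

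Genes known to escape X inactivation give a reference for incomplete silencing. Of 9 listed, Kdm6a, Eif2s3x and Ddx3x were measured, with day 7 medians of 0.296, 0.241 and 0.172 over 16 libraries. Ddx3x, an RNA helicase gene, was at 0.116 to 0.162 in Halo-SMCHD1, at 0.212 and 0.244 in E147A, and at 0.208 and 0.203 in Y353C. The highest value of Spin4 in any differentiated library, 0.0714, lay under the lowest day 7 value of each of the 3 genes.

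The genes whose values followed Spin4 most closely lay far from it. Over the 20 differentiated libraries of the table with 249 genes, the Spearman correlation with Spin4 was highest for Chst7 (0.789), a sulfotransferase gene, Tbc1d25 (0.764), a Rab GTPase regulator, Sytl5 (0.747), a synaptotagmin-like gene, Rbm3 (0.73), a cold-induced RNA binding protein gene, and Xiap (0.715), an inhibitor of apoptosis. They start 53 to 86.9 Mb to the left of Spin4. At day 7, Chst7 was at 0.00672 in Halo-SMCHD1, 0.0186 in G137E, 0.0486 in Y353C and 0.0573 in E147A, with its lowest mean in Halo-SMCHD1 and its highest in E147A, and it was at 0.0475 in SMCHD1 KO, where Spin4 was at 0. The order of lines differed among the rest. Tbc1d25 and Xiap had their lowest means in G137E (0.0845 and 0.0284), and Sytl5 had its highest in iXist-ChrX (0.0263, against 0.0236 in E147A). Spin4 itself correlated with the library median at 0.542, and the median correlation of all genes with Spin4 was 0.322. Whether the overall level of a library adds to these correlations was not tested. With the library medians subtracted, the 5 highest were Mospd1 (0.567), Cfp (0.558), Sytl5 (0.531), Tbc1d25 (0.484) and Chst7 (0.483), 3 of which were in the first list. Rbm3 and Xiap, the others of the first list, were then at 0.283 and 0.358. Each gene of the first list thus had a lower correlation after the subtraction. The 20 libraries share lines and days, and in 5 of the 9 groups every library of Spin4 was at 0, so these values describe likeness in these libraries only. They include the Halo-SMCHD1, E147A and Y353C day 7 libraries by which Spin4 had come up, so the ranking is no separate check of its values.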

How the data were processed

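Chromatin-associated RNA was sequenced with paired ends. The authors removed ribosomal reads with Bowtie2, aligned with STAR to an mm10 genome masked at strain variants, split unique reads by allele with SNPsplit and counted strand-specific reads over exons and introns with featureCounts. They then kept genes with enough allele-specific reads and deposited the fraction Xi/(Xi+Xa) per gene and library, in 2 tables with identical values in the 14 libraries they share. No counts were used here, so depth is unknown and no counting interval is given. The reads of iXist-ChrX replicate 1 had been rebuilt from an earlier alignment.

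Columns were assigned to samples by their names. The iXist-ChrX columns were assigned at group level, because they carry a clone name that the labels lack, and the third E147A number in the table has no counterpart among the labels. Fractions were tested on the log2 odds scale with 0.01 added, in limma 3.58.1 (R 4.3.3), fitting 1 model per table to its day 5 and day 7 libraries, with Benjamini-Hochberg adjustment over the table (249 or 242 genes, threshold 0.05, two-sided). Comparisons with G137E or K518E, and those between day 5 and day 7, used the table with K518E, and the others used the larger table. On simulated data for SMCHD1 KO against iXist-ChrX over 249 genes, 82.2% of genes shifted by 3 log2 odds were recovered.

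The genes described were Spin4, the genes starting within 2 Mb, the 5 genes most like it by Spearman correlation, the listed chromatin genes with an adjusted p under the threshold in a comparison of day 7 or at either end of the day 7 levels, the listed escape genes and Xist. The values of 1 neighbour are not reported here. Spin4 and these lists were chosen with earlier results of these data known. For that reason 9 comparisons of Spin4, among them E147A against iXist-ChrX, for which a test had been planned, are described without a p, and 8 were tested. Alternatives were other added constants, untransformed fractions, moderation with robust and trend options, only the compared libraries, subtracted library medians, genes with an uninduced fraction of 0.25 to 0.75, the other table, a replicate block, windows of 1 and 5 Mb, and leaving out each library.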

Additional observations from a re-analysis of the deposited data

How the results depend on the processing

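The size of the Spin4 differences against groups at 0 is set by the constant added to the fractions, and the sign did not change with it. With 0.001 in place of 0.01, the log2 odds differences at day 7 were 6.18 for E147A, 4.88 for Y353C and 4.44 for K518E against Halo-SMCHD1, 4.11 for E147A and 2.8 for Y353C against iXist-ChrX, -2.07 for Halo-SMCHD1 against iXist-ChrX and -5.83 for Halo-SMCHD1 at day 7 against day 5. With 0.05 they were 1.32, 0.678 and 0.556 against Halo-SMCHD1, 1.1 and 0.462 against iXist-ChrX, and -1.11 for Halo-SMCHD1 between the days. With the library medians subtracted, Spin4 differed from Halo-SMCHD1 at day 7 by 1.99 in E147A, 1.31 in Y353C, -0.332 in LRIF1 KO and -0.0909 in G137E, and by -1.84 in Halo-SMCHD1 between the days. It also differed by -1.08 for SMCHD1 KO against iXist-ChrX, and at day 5 by -0.899 for K518E against Halo-SMCHD1 and 1.85 for K518E against G137E, with none past the limma threshold. Between the days Spin4 differed by 0.819 in G137E and 0.77 in K518E, against 0 and 0.446 unsubtracted, with neither past the threshold. For Halo-SMCHD1 against iXist-ChrX at day 7 it differed by -0.272, against -0.712. Under that setting the E147A differences of Eif2s3x, Taf1 and Ogt turned to -0.444, -0.208 and -0.0568, since the medians of the E147A libraries were themselves higher. In the table without K518E, Spin4 in G137E against Halo-SMCHD1 at day 5 stayed at -2.73 and passed the limma test with an adjusted p of 0.000581.

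Counts of genes past the limma threshold moved more. For SMCHD1 KO against iXist-ChrX they were 4 with 0.05 added, 6 with untransformed fractions, 0 with only the compared libraries and 0 with library medians subtracted, against 2. For E147A against Halo-SMCHD1 they were 19 with 0.001 added, 1 with only the compared libraries and 1 with medians subtracted, against 40, and for Y353C against Halo-SMCHD1 they were 0 in both of the last settings, against 9. With only the compared libraries, K518E against Halo-SMCHD1 at day 5 gave 2 and LRIF1 KO against Halo-SMCHD1 gave 1, against 1 and 0. G137E against Halo-SMCHD1 at day 5 gave 1 in the other table, against 0. For day 7 against day 5 in G137E the count was 0 with 0.001 added, 42 with 0.05, 50 untransformed, 0 with only the compared libraries, 0 with medians subtracted and 2 in the other table, against 18. In Halo-SMCHD1 it was 0, 42, 62, 2, 2 and 6, against 23. The causes of these changes were not tested. The neighbours' median difference in G137E against Halo-SMCHD1 at day 5 was 0.017 within 1 Mb and -0.000214 within 5 Mb, and in K518E it was -0.0128 within 1 Mb and -0.0119 as a mean.

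The replicate numbers were not taken to pair libraries, because the deviations of same-numbered libraries correlated weakly. The correlations were 0.00712 to 0.0905 in the comparison with 3 shared numbers, where 2 of 3 correlated best with their own number. Over the 11 comparisons with shared numbers they ran from -0.209 to 0.146. A shared batch behind the numbers is not excluded by these values. With the replicate block, day 7 against day 5 gave 56 genes in G137E and 76 in Halo-SMCHD1, against 18 and 23 without it. A block over the numbered libraries alone, chosen after seeing the data, gave 1 gene for LRIF1 KO against Halo-SMCHD1. The block changed no call of Spin4 where it was run. The block was not run for the comparisons with iXist-ChrX, whose columns are numbered but were assigned to the group only, or with E147A, where 1 of the numbers in the table matches a label.

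Each library was also left out in turn, and a lone library in a group was then assumed to vary like the other groups. The Spin4 difference at day 7 ran from 2.95 to 3.13 in E147A, 1.74 to 2.16 in Y353C and 1.16 to 2.16 in K518E against Halo-SMCHD1, from 1.62 to 3.04 in E147A and 0.53 to 1.95 in Y353C against iXist-ChrX, and from -1.42 to 0 for SMCHD1 KO, LRIF1 KO and Halo-SMCHD1 against iXist-ChrX. At day 5 it ran from -2.79 to -2.66 in G137E and -2.73 to -0.296 in K518E against Halo-SMCHD1. K518E against G137E ran from 0 to 2.43 at day 5 and 1.16 to 2.16 at day 7. Between the days it ran from -2.79 to -2.66 in Halo-SMCHD1 and from -0.769 to 1.66 in K518E, where it turned to -0.769 without K518E day 5 replicate 1 and to -0.057 without day 7 replicate 1. The counts of genes ran from 3 to 88 for E147A, 0 to 12 for Y353C and 0 to 1 for LRIF1 KO against Halo-SMCHD1 at day 7, 1 to 2 for K518E against Halo-SMCHD1 at day 5, 0 to 4 for SMCHD1 KO against iXist-ChrX, and 0 to 47 in G137E and 0 to 32 in Halo-SMCHD1 between the days. The neighbours' median difference at day 7 ran from 0.00376 to 0.0622 for E147A, 0.0116 to 0.0199 for Y353C and -0.00701 to 0.00559 for LRIF1 KO against Halo-SMCHD1 and from 0 to 0.0168 for SMCHD1 KO against iXist-ChrX, and at day 5 from -0.00386 to 0.00386 for G137E and -0.0143 to -0.00759 for K518E.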
